A study of Mus musculus with 4 samples.

Results

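The Wnt signalling genes followed here in the developing mouse limb were 10 of the 26252 genes or transcript clusters to which tags were summed. They were the ligands Wnt5a and Wnt11, the secreted inhibitors Sfrp1, Sfrp2, Frzb, Dkk2 and Dkk3, and the effectors or targets Ctnnb1, Lef1 and Axin2. Each was found by its Ensembl gene in the deposited tag table, all of its tags were summed in every library, and the limb types were then compared for each gene and for each of its tags. The animals were CD1 embryos at E14.5, and total RNA was taken from dissected forelimbs or hindlimbs. Each limb type had 2 biological replicates by its labels, which gave 4 libraries, and no treatment or mutation was applied. Whether embryos were pooled, and whether samples of equal replicate number shared animals, is not in the labels. DGE-SAGE counts a 17-base tag beside an NlaIII site (CATG) of each polyadenylated transcript, ideally the site nearest the poly(A) tail.

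Wnt ligands are secreted lipid-modified proteins that bind Frizzled receptors. In the canonical branch, Lrp5 or Lrp6 joins the receptor, beta-catenin escapes destruction, enters the nucleus and works with Tcf/Lef factors on target genes, whereas Wnt5a and Wnt11 act mostly through beta-catenin-independent branches that orient cells. Sfrp proteins bind Wnts outside the cell, Dkk2 binds Lrp5/6, and in the limb Wnt signalling shapes outgrowth, dorsoventral pattern, cartilage and joints.

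The hindlimb libraries held 5325279 and 5015295 tags and the forelimb libraries 4695786 and 1829647, so forelimb replicate 2 was the shallowest. Levels are in CPM, counts scaled to a common library size with TMM factors, in which 1 count was worth 0.222 to 0.618 CPM. All 5 limb mesenchyme markers (Prrx1, Prrx2, Twist1, Msx1, Msx2) were counted in every library and summed to 1110 to 1370 CPM. Most of that sum was Twist1 (681 to 961 CPM), and the markers went different ways. Prrx2 and Msx1 were called as higher in hindlimb (hindlimb-over-forelimb log2 fold change 2.04 and 1.19). Msx2 (−1.20), Prrx1 (−0.45) and Twist1 (−0.14) lay below 0 and were not called. Markers of other tissues were present too: 5 skeletal muscle genes summed to 2230 to 2700 CPM in forelimb and 846 to 909 in hindlimb, 5 tendon genes to 960 to 1050 and 379 to 463, and 5 cartilage genes to 1890 to 2170 and 2840 to 3940. Single genes carried the tendon and cartilage sums (Dcn and Col2a1), and others went the other way: the tendon factor Scx was called as higher in hindlimb (log2 fold change 2.77) and the cartilage matrix gene Matn1 as higher in forelimb (−1.26). With the offset described next, none of these 4 genes was called (Dcn −0.25, Col2a1 0.21, Scx 0.72, Matn1 −0.21). The other tendon genes were then at −1.10 (Fmod), −0.97 (Tnmd) and −0.10 (Mkx). The muscle genes were at −1.01 (Acta1), −0.74 (Myh3), −1.11 (Myh8), −0.91 (Tnnc2) and −0.40 (Myog). Prrx2 and Msx1 were at 0.26 and 0.17, and none of these genes was called with the offset. The part of other tissues in the Wnt results was not tested, and in whole limbs fewer cells of a type and less RNA per cell cannot be told apart. Across all 37805 tags tested, the hindlimb-over-forelimb log2 fold change also rose with the share of G and C bases in the tag (Pearson r = 0.572, a description over tags that share libraries, depth and base composition). For that reason the fold changes of genes, and of the tags the results turn on, are given as fitted and also with an offset that removes, library by library, how tags of the same gene differ with their sequence.

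Sfrp2 was the member with the widest limb difference under that offset: it was counted at 338 to 377 CPM in hindlimb and 195 to 216 in forelimb. Dkk2 went the other way, at 106 to 112 CPM in hindlimb and 182 to 200 in forelimb, and Lef1 was at 16.0 to 26.2 against 8.03 to 9.68. None of the 10 passed the threshold of 0.05 in edgeR's quasi-likelihood test adjusted over all 13718 genes tested, which called 16.7% of those genes (9.58% as higher in hindlimb, 7.08% in forelimb). Sfrp2, Dkk2 and Lef1 had an unadjusted p under 0.05, 30.0% of the members beside 32.4% of all genes tested, and DESeq2 called Sfrp2 and Dkk2 where it called 16.5% of genes (9.02% higher in hindlimb, 7.49% in forelimb). With the tag-sequence offset 0.153% of genes were called (0.0875% higher in hindlimb, 0.0656% in forelimb), and Sfrp2 alone among the members was one of them. The limb types did not overlap in 6 of the 10 members, 5 with hindlimb higher and 1 with forelimb higher, beside 62.8% of all genes tested (31.4% with hindlimb higher and 31.4% with forelimb higher). The median log2 fold change of the members was 0.32 (−0.03 for all genes tested) and 0.24 with the offset (−0.02).

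**Figure D1:**
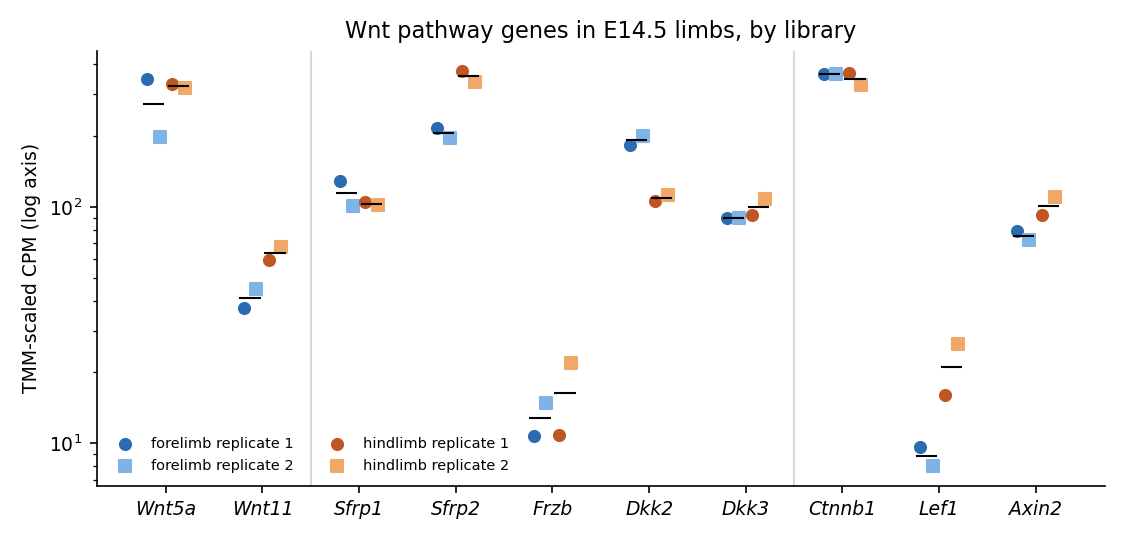
Level of the 10 Wnt genes in each library (TMM-scaled CPM, log axis); circles and squares are replicates 1 and 2, blue is forelimb, orange is hindlimb, bars are means of 2 libraries. The hindlimb libraries of Sfrp2 (338 and 377) lie above its forelimb libraries, those of Dkk2 (106 and 112) below, and the libraries of Ctnnb1 between 327 and 367.

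**Figure D2:**
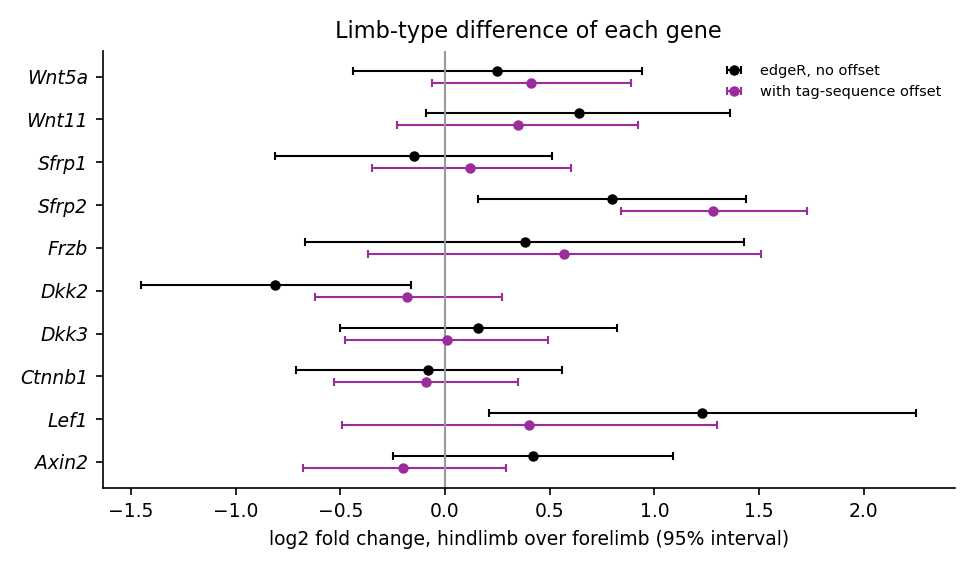
Hindlimb-over-forelimb log2 fold change of each gene with its 95% interval, from edgeR without (black) and with (purple) the tag-sequence offset. Sfrp2 moves from 0.80 to 1.28 with the offset, whereas Dkk2 moves from −0.81 to −0.18 and Lef1 from 1.23 to 0.40.

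Among the ligands, Wnt5a, which drives elongation and polarity of the limb bud, was counted at 346 and 197 CPM in the forelimb libraries and 331 and 318 in the hindlimb libraries. The forelimb replicates lay on either side of the hindlimb pair, so the limb types overlapped. Means were 272 ± 105 CPM (SD, n = 2) and 325 ± 9.45, and the log2 fold change was 0.25 ± 0.33 (SE; 95% interval −0.44 to 0.94; edgeR adjusted p = 0.643). It was 0.41 ± 0.22 with the offset (adjusted p = 0.582). Without forelimb replicate 1 the value was 0.72, and without forelimb replicate 2 it was −0.10.

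The Wnt5a gene (ENSMUSG00000021994; GRCm38 chromosome 14, 28504750 to 28527448, plus strand) had 33 counted tags, and its sum hid tags that went apart. A set of 3, all in the 3′ UTR of exon 5, are shown because they hold most of the counts and differ in base composition; capitals mark the NlaIII site and lower case the 17 counted bases. From top to bottom they lie at chr14:28525268-28525288, chr14:28523048-28523068 and chr14:28525021-28525041 on GRCm38, and 41.2%, 17.6% and 58.8% of their 17 bases are G or C.
Wnt5a main tag: CATGtttatgagcagagtgga
Wnt5a T-rich tag: CATGtgttttgttttgtttta
Wnt5a GC-rich tag: CATGggcttggtagccttctg

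The main tag, beside the last site of transcript Wnt5a-202, was counted at 166 and 69.1 CPM in forelimb and at 184 in both hindlimb libraries. The T-rich tag made up 20.7% (Wilson 95% interval 18.6 to 22.9) and 30.7% (25.9 to 36.0) of the Wnt5a counts in forelimb, against 6.17% (5.06 to 7.51) and 0.793% (0.431 to 1.45) in hindlimb. These intervals cover counting error only, since amplified tags without molecular identifiers are not independent molecules. The GC-rich tag took 5.37% and 6.27% in forelimb and 6.64% and 17.8% in hindlimb. In the test of tag usage (edgeR's diffSpliceDGE, which asks whether the tags of a gene move apart), Wnt5a was called with adjusted p = 0.0351, where 10.4% of 8694 genes were called; the fit with the replicate block ended this call (0.0614). With the offset 0.196% of genes were called for usage and Wnt5a had an adjusted p of 0.332, and the T-rich tag's log2 fold change went from −2.51 ± 0.76 to −0.74.

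Wnt11, a ligand of the beta-catenin-independent branch in many tissues, was counted at 37.4 and 45.1 CPM in forelimb and 59.8 and 67.8 in hindlimb. Both hindlimb libraries were above both forelimb libraries. The means were 41.3 ± 5.42 and 63.8 ± 5.66 CPM (SD, n = 2), with a log2 fold change of 0.64 ± 0.35 (95% interval −0.09 to 1.36; edgeR adjusted p = 0.215), or 0.35 ± 0.27 with the offset. Its depth was 73 to 269 counts a library. The gene (ENSMUSG00000015957) lies at 98835112 to 98855195 of chromosome 7 on the plus strand. A single tag carried 84.0% to 95.9% of its counts in every library, at the last site of Wnt11-205 in the 3′ UTR of exon 7 (chr7:98853646-98853666), so Wnt11 gave little to compare among tags.
Wnt11 main tag: CATGgaaccactaacttgggt

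Of the secreted Frizzled-related proteins, which carry a Frizzled-like domain that binds Wnts, Sfrp1 showed the least limb difference as a sum. It was counted at 128 and 101 CPM in forelimb and 105 and 102 in hindlimb, which overlapped. The log2 fold change was −0.15 ± 0.32 (95% interval −0.81 to 0.51; edgeR adjusted p = 0.782) and 0.12 ± 0.23 with the offset. Its 2 most abundant tags, both in the 3′ UTR of exon 3 and shown because they went opposite ways, lie at chr8:23447715-23447735 (29.4% G or C) and, at the last site, chr8:23449582-23449602 (47.1%). The gene (ENSMUSG00000031548) spans 23411502 to 23449632 of chromosome 8 on the plus strand.
Sfrp1 upstream tag: CATGattgcctataattcaga
Sfrp1 last-site tag: CATGctttccctgccaatgta

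The upstream tag held 50.9% and 53.4% of the Sfrp1 counts in forelimb and 24.4% and 12.9% in hindlimb. The last-site tag held 25.7% and 10.4% in forelimb and 45.0% and 54.6% in hindlimb. Their log2 fold changes were −1.62 ± 0.49 and 1.18 ± 0.56 (edgeR adjusted p = 0.0724 and 0.195), and 0.11 and 0.42 with the offset. The usage of Sfrp1 tags did not pass the test (adjusted p = 0.158). Tags of the last site alone gave Sfrp1 a log2 fold change of 1.09, against −0.15 from all of its tags.

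Sfrp2, a close relative of Sfrp1, was counted at 216 and 195 CPM in forelimb and 377 and 338 in hindlimb, on 847, 315, 1696 and 1341 counts. The limb types did not overlap. The means were 205 ± 14.9 and 358 ± 27.6 CPM (SD, n = 2), and the log2 fold change was 0.80 ± 0.31 (95% interval 0.16 to 1.44; edgeR adjusted p = 0.0776). DESeq2 called it (0.79, adjusted p = 0.0315), and so did edgeR on its most abundant tag alone (1.21, adjusted p = 0.0477). The most abundant tag alone called 2933 of 12483 genes. With a lowess on the G + C share of genes, edgeR did not call Sfrp2 (0.80 ± 0.24, adjusted p = 0.0548). Last-site tags alone (0.74, edgeR adjusted p = 0.201) and the replicate block (0.80 ± 0.39, adjusted p = 0.152) gave no call either. With the offset the Sfrp2 log2 fold change was 1.28 ± 0.21 (0.84 to 1.73, edgeR adjusted p = 0.0163). With the offset and 1 library left out it was 1.42 without forelimb replicate 1 and 1.18 without replicate 2. It was 1.19 and 1.37 without hindlimb replicates 1 and 2. The call did not hold in every one of these fits.

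The gene (ENSMUSG00000027996) spans 83766321 to 83774316 of chromosome 3 on the plus strand, and its 4 most abundant tags all sit in the 3′ UTR, in the order they lie on the transcript at chr3:83773686-83773706, chr3:83773987-83774007, chr3:83774005-83774025 and chr3:83774068-83774088. They are shown because together they make most of the Sfrp2 sum and run from 17.6% to 58.8% G or C.
Sfrp2 site 5 from the 3′ end: CATGactatttttatgaagtt
Sfrp2 site 3: CATGagctctgaccattgcat
Sfrp2 site 2: CATGcgttcccatcccagcta
Sfrp2 site 1, the last: CATGatgccctcaaataaaaa

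The site 2 tag was counted at 74.6 and 45.9 CPM in forelimb and 126 and 168 in hindlimb. The last-site tag, with 29.4% G or C, was at 45.7 and 39.8 in forelimb and 89.7 and 66.1 in hindlimb, and thus also higher in both hindlimb libraries. The site 3 tag was at 61.7 and 65.5 in forelimb and 59.8 and 31.8 in hindlimb. Of the 9 Sfrp2 tags tested, 7 had a log2 fold change above 0, and with the offset all 9 did, from 0.11 to 2.35. Another 3 Sfrp2 tags, less abundant, were called as higher in hindlimb without the offset, and were named here after their values were seen: the tag at chr3:83773579-83773599, at 1.29 and 4.90 CPM in forelimb and 36.6 and 23.0 in hindlimb (log2 fold change 3.44 ± 0.71, edgeR adjusted p = 0.0314; 1.80 with the offset, adjusted p = 0.634), had the highest level of them.

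Frzb, a Wnt-binding inhibitor first known from cartilage, was thinly counted, with 24 to 87 counts a library. Its levels were 10.7 and 14.8 CPM in forelimb and 10.9 and 21.9 in hindlimb, and the limb types overlapped. The log2 fold change was 0.38 ± 0.50 (95% interval −0.67 to 1.43; edgeR adjusted p = 0.643), or 0.57 ± 0.45 with the offset (adjusted p = 0.721). Both intervals span 0, and the hindlimb replicates were farther apart than the means of the limb types. The gene (ENSMUSG00000027004) lies on the minus strand of chromosome 2, 80411970 to 80447625. Its most abundant tag tested starts at the second of 2 NlaIII sites that abut, so the tags of the pair overlap; they lie at chr2:80412467-80412487 and chr2:80412471-80412491 in the 3′ UTR and are shown for that overlap.
Frzb nearer the 3′ end: CATGtgcaccagggtgttatt
Frzb abutting site: CATGcatgtgcaccagggtgt

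The Frzb tag nearer the 3′ end was counted at 3.36 and 4.28 CPM in forelimb and 4.68 and 4.51 in hindlimb. The abutting one was at 0.774, 1.22 and 1.34 CPM in 3 libraries and 7.51 in hindlimb replicate 2, the library in which the Frzb sum was highest.

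Dkk2, a Dickkopf protein that binds Lrp5/6, was counted at 182 and 200 CPM in forelimb and 106 and 112 in hindlimb. Both forelimb libraries were above both hindlimb libraries, with means of 191 ± 12.8 and 109 ± 4.34 CPM (SD, n = 2). The log2 fold change was −0.81 ± 0.31 (95% interval −1.45 to −0.16; edgeR adjusted p = 0.0774), DESeq2 called it (−0.82, adjusted p = 0.0384), as did edgeR on last-site tags alone (−1.53, adjusted p = 0.0152), and with the offset it was −0.18 ± 0.21 (adjusted p = 0.837). Last-site tags alone called 2224 of 9562 genes. On its most abundant tag alone Dkk2 was called too (−1.47, edgeR adjusted p = 0.0268), where 2933 of 12483 genes were. With a lowess on the G + C share of genes in place of the offset, edgeR did not call it (−0.66 ± 0.24, adjusted p = 0.108). The replicate block gave no call either (−0.81 ± 0.39, edgeR adjusted p = 0.145). The gene (ENSMUSG00000028031) spans 132085292 to 132180304 of chromosome 3 on the plus strand. The tags below lie in the 3′ UTR of exon 4, at chr3:132179959-132179979 (the last site, 35.3% G or C), chr3:132179253-132179273 (58.8%) and chr3:132179294-132179314, and are shown because the first pair were the most abundant Dkk2 tags and the last was called.
Dkk2 last-site tag: CATGtgtctgctagaacaaaa
Dkk2 GC-rich tag: CATGcaggtaagctgggtgca
Dkk2 called tag: CATGcttttgaggctgtaaga

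The last-site tag made up 50.5% and 58.3% of the Dkk2 counts in forelimb and 46.1% and 27.2% in hindlimb. The GC-rich tag went from 6.85% and 4.63% in forelimb to 22.0% and 47.4% in hindlimb, and led the Dkk2 tags in hindlimb replicate 2 only. The third tag, named after its values were seen, was the one Dkk2 tag called: 24.0 and 10.4 CPM in forelimb against 1.12 and 2.50 in hindlimb (log2 fold change −3.26 ± 0.74, edgeR adjusted p = 0.0380). It had −3.78 with the offset (adjusted p = 0.160), so the offset took the difference away from the Dkk2 sum and from the last-site tag (−1.39 to 0.18) but not from this tag.

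Dkk3, a divergent member of the Dickkopf family, was counted at 89.4 and 89.6 CPM in forelimb and 92.3 and 108 in hindlimb. The hindlimb libraries were higher by a margin smaller than the gap between them. The log2 fold change was 0.16 ± 0.32 (95% interval −0.50 to 0.82; edgeR adjusted p = 0.765) and 0.01 ± 0.23 with the offset. The gene (ENSMUSG00000030772) lies on the minus strand of chromosome 7, 112116017 to 112159057, and the tag of its last site held 55.7% to 74.5% of its counts.

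Among the effectors, Ctnnb1, which encodes beta-catenin, was close in level between the limb types: 366 CPM in both forelimb libraries and 367 and 327 in hindlimb. The limb types overlapped, and the log2 fold change was −0.08 ± 0.30 (95% interval −0.71 to 0.56; edgeR adjusted p = 0.892), or −0.09 ± 0.21 with the offset. The gene (ENSMUSG00000006932) lies at 120929216 to 120960507 of chromosome 9 on the plus strand. Its tags went apart within that sum, with the smallest adjusted p of the members in the usage test (diffSpliceDGE in edgeR, 0.0185), a call that ended in the fit with the replicate block (0.137). The pair that carries this is shown: a 3′ UTR tag at chr9:120959672-120959692 (47.1% G or C), the last site of a shorter annotated transcript, and a tag in the coding sequence of exon 15 at chr9:120959457-120959477 (76.5%).
Ctnnb1 3′ UTR tag: CATGtgtggaagtttctcacg
Ctnnb1 coding tag: CATGgatgggctgcccccagg

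The 3′ UTR tag was counted at 201 and 206 CPM in forelimb and 94.1 and 57.8 in hindlimb, or 54.1% and 56.7% of the Ctnnb1 counts against 25.5% and 17.8%. The coding tag was at 17 and 17.7 CPM in forelimb and 70.0 and 75.1 in hindlimb, a share of 4.59% and 4.89% against 19.0% and 23.1%. Its log2 fold change of 2.06 ± 0.44 was called (edgeR adjusted p = 0.0332); that of the 3′ UTR tag, −1.42 ± 0.42, was not (adjusted p = 0.0693). With the offset the pair stood at −0.23 and −0.03, and the usage p was 1.0. The call of the coding tag ended without either forelimb library, and those of Wnt5a and Ctnnb1 tag usage held in 1 of the 4 fits that each left out a library, the one without hindlimb replicate 1.

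Lef1, the HMG-box factor through which beta-catenin acts on DNA, was counted at 9.68 and 8.03 CPM in forelimb and 16.0 and 26.2 in hindlimb. Both hindlimb libraries were higher, on 72 and 104 counts against 38 and 13. The means were 8.86 ± 1.16 and 21.1 ± 7.22 CPM (SD, n = 2), and the log2 fold change of 1.23 ± 0.48 (95% interval 0.21 to 2.25; edgeR adjusted p = 0.0862) was 0.40 ± 0.42 with the offset (adjusted p = 0.809). Without hindlimb replicate 1 it was called (1.53, adjusted p = 0.0325), and without hindlimb replicate 2 it was 0.85 (adjusted p = 0.487). Without forelimb replicate 1 or 2 the adjusted p was 0.192 and 0.248, and last-site tags alone gave a call (1.72, adjusted p = 0.0422). Last-site tags alone called 2224 of 9562 genes. With a lowess on the G + C share of genes in place of the offset, Lef1 was at 1.06 ± 0.44 (edgeR adjusted p = 0.163). The gene (ENSMUSG00000027985) spans 131110471 to 131224356 of chromosome 3 on the plus strand. Its tag from the last site of Lef1-201, shown because most of the difference lay there, crosses an exon junction in the 3′ UTR, so it comes from spliced RNA.
Lef1 last-site tag: CATGgtggtaagagaagctcc

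That tag was at 1.55 and 1.84 CPM in forelimb and 7.14 and 15.5 in hindlimb, with a log2 fold change of 2.74 ± 0.77 (edgeR adjusted p = 0.0617) and 1.62 with the offset. A coding tag of Lef1 (chr3:131200363-131200383) was at 3.36 and 4.28 CPM in forelimb and 6.69 and 8.51 in hindlimb. Both were higher in both hindlimb libraries, on 3 to 62 counts a library. Another coding tag of Lef1, with 11.8% G or C, was at 4.39 and 0.612 CPM in forelimb and 1.34 and 0 in hindlimb, which overlapped. It held 44.7% and 7.69% of the Lef1 counts in forelimb and 8.33% and 0% in hindlimb, and was not tested.

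Axin2, a scaffold of the beta-catenin destruction complex that is itself induced by Wnt signalling, was counted at 78.9 and 72.3 CPM in forelimb and 92.5 and 110 in hindlimb. The limb types did not overlap, with means of 75.6 ± 4.70 and 101 ± 12.3 CPM (SD, n = 2). The log2 fold change was 0.42 ± 0.32 (95% interval −0.25 to 1.09; edgeR adjusted p = 0.392), and its sign turned with the offset (−0.20 ± 0.23). With a lowess on the G + C share of genes in place of the offset, Axin2 was at 0.72 ± 0.26 (edgeR adjusted p = 0.107). The gene (ENSMUSG00000000142) lies at 108920349 to 108950783 of chromosome 11 on the plus strand. The tag of its last site (chr11:108950654-108950674) held 80.6% and 52.1% of the counts in forelimb and 65.6% and 67.7% in hindlimb, which overlapped. As sums, none of Ctnnb1, Lef1 and Axin2 was called by edgeR or by DESeq2 over all 4 libraries.

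Over all 10 genes, 65 tags were counted deeply enough to test, and 6 were called, 5 as higher in hindlimb (3 of Sfrp2 and 1 each of Wnt5a and Ctnnb1) and 1 of Dkk2 as higher in forelimb. That is 9.23% of the members' tags, beside 6.24% of all tags tested (4.59% higher in hindlimb, 1.64% in forelimb). The called Wnt5a tag, named after its values were seen, lies at chr14:28525185-28525205 and was at 2.32 and 0.612 CPM in forelimb and 14.3 and 15.3 in hindlimb. With the offset none of the 65 was called by edgeR, 8 had an unadjusted p under 0.05, and 0.0317% of all tags were called (0.0238% higher in hindlimb, 0.00794% in forelimb); DESeq2 was not run on tags.

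Among the members' tags the fold change also went up with the share of G and C. The log2 fold change of the 65 tags had a Pearson r of 0.409 with their G and C share, and −0.174 with the offset; the tags share 4 libraries and 10 genes. Of 18 tags with at least 10 G or C among 17 bases, 15 lay above 0, with a median log2 fold change of 1.29 (1.45 over all such tags). These tags took 15.4% and 15.3% of the members' counts in forelimb and 26.6% and 36.3% in hindlimb. The 13 tags with at most 6 had a median of −0.09 (−0.93 over all such tags) and took 31.9% and 30.5% in forelimb and 22.8% and 16.6% in hindlimb. Both classes ordered the hindlimb libraries alike, replicate 2 lying farther from the forelimb than replicate 1.

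**Figure D3:**
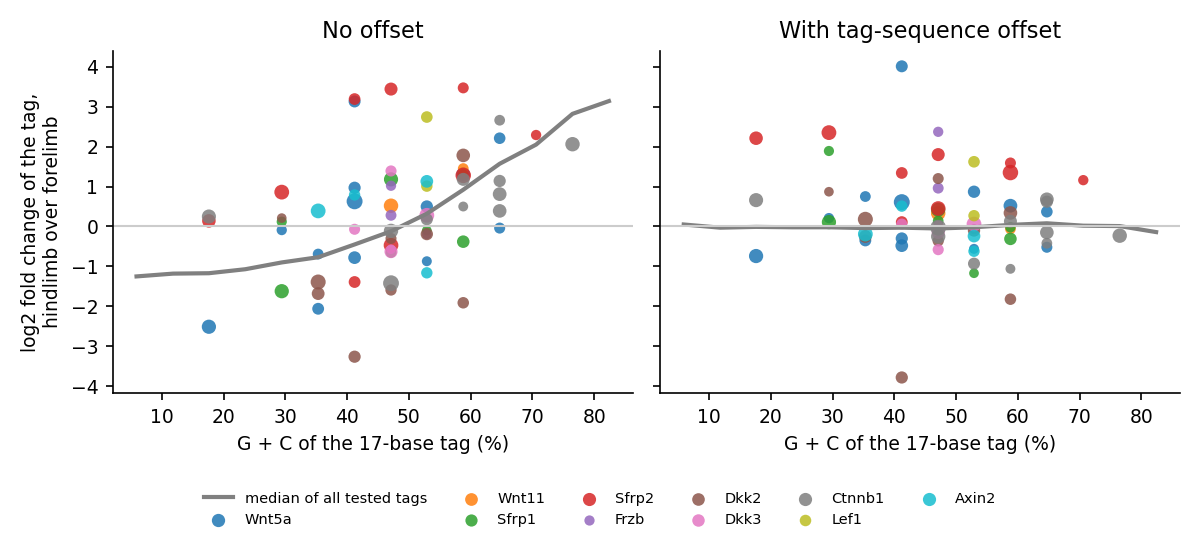
Hindlimb-over-forelimb log2 fold change of the 65 tested tags against the G + C share of their 17 bases, coloured by gene and larger for higher levels, without (left) and with (right) the tag-sequence offset; the grey line is the median of all tested tags. The line climbs from −1.25 to 3.14 on the left and stays near 0 on the right; 7 of the 9 Sfrp2 tags lie above 0 on the left and all 9 on the right.

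**Figure D4:**
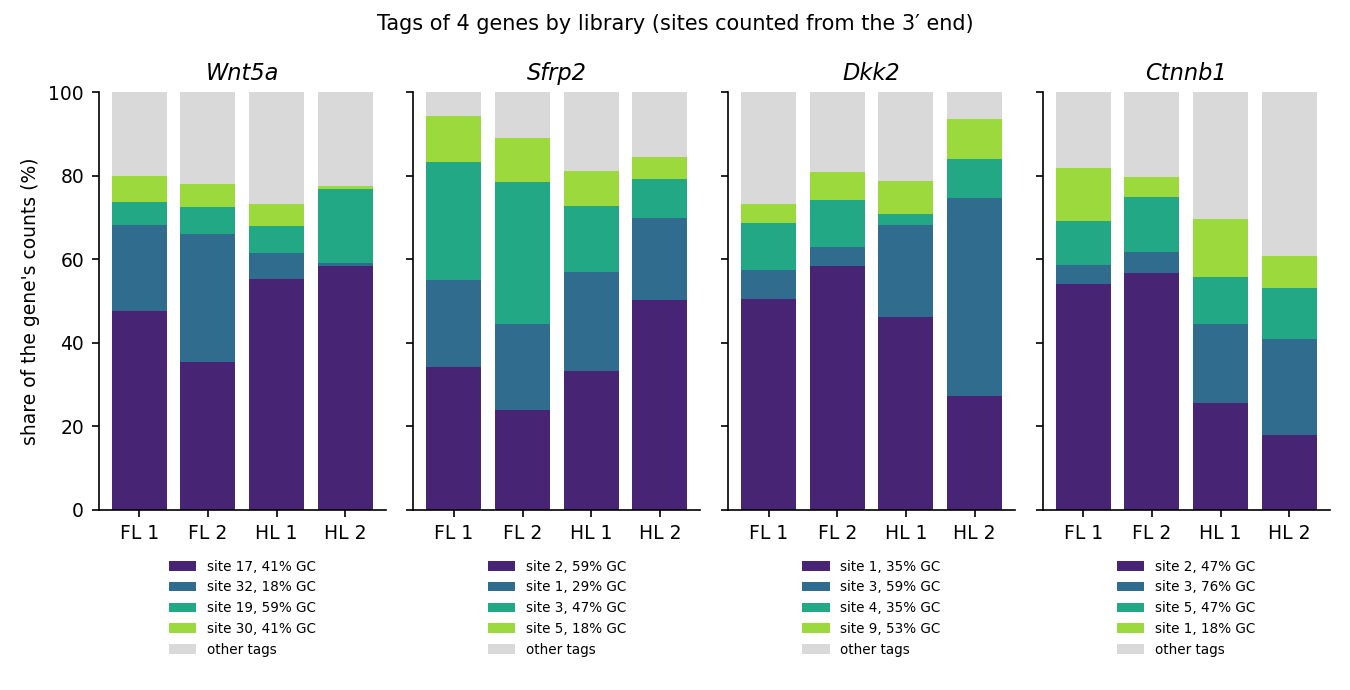
Share of each gene's counts (%) taken by its 4 most abundant tags and by its other tags in the forelimb (FL) and hindlimb (HL) libraries; tags are named by their site counted from the 3′ end of the reference transcript and their G + C share. The Ctnnb1 tag of site 2 falls from 54.1% and 56.7% in forelimb to 25.5% and 17.8% in hindlimb, and the Dkk2 tag of site 3 reaches 47.4% in hindlimb replicate 2.

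The rest of the pathway gave 76 tested genes of 84 with a tag in the table, and 8 of them were called by edgeR, 5 higher in hindlimb and 3 in forelimb, or 10.5% beside 16.7% of all genes. With the offset none of the 76 was called by edgeR. An unadjusted p under 0.05 was then found for 8 of the 76 and for 1358 of all 13718 genes tested. Among 12 other ligands none was called. Of them 4 had an unadjusted p under 0.05 in edgeR, or 33.3% beside 32.4% of all genes tested. There were 9 above 0, where 6677 of all 13718 genes were, and their median log2 fold change was 0.70 (−0.03 for all). With the offset 6 lay above 0 and 6 below, with a median of −0.05. Wnt4, the most abundant of them and a ligand of kidney and gonad development, was at 36.9 and 37.1 CPM in forelimb and 59.1 and 72.4 in hindlimb (0.83 ± 0.35, adjusted p = 0.108), and −0.67 with the offset. Wnt4 was called by edgeR from its most abundant tag alone (3.24, adjusted p = 0.00250) and with tags of no gene in the table added (1.15, adjusted p = 0.0228). These fits called 2933 of 12483 and 2484 of 14359 genes.

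Among 5 secretion genes and R-spondins, Wls, the carrier that takes Wnts to the cell surface, was called as higher in forelimb, at 352 and 371 CPM against 150 and 107 in hindlimb (log2 fold change −1.49 ± 0.32, edgeR adjusted p = 0.00517), and turned to 0.49 with the offset (adjusted p = 0.460); with a lowess on the G + C share of genes it was −0.56 (adjusted p = 0.165). Its tags averaged 25.8% G or C. Among 9 other inhibitors, 8 lay below 0 (median −0.61), where 7041 of all 13718 genes did, and with the offset 5 did (median −0.18). The remaining one, Kremen2, a Dkk co-receptor gene, was called as higher in hindlimb, at 101 and 150 CPM against 37.2 and 32.7 in forelimb (1.84 ± 0.35, adjusted p = 0.00288; −0.18 with the offset). With the lowess on G + C share Kremen2 stayed called (1.26 ± 0.27, edgeR adjusted p = 0.0146), where 825 of 13718 genes and 2 of these 76 were. Tags that also match another gene made up 88.6% of the Kremen2 counts, so its level is uncertain. Its tags that match 1 gene gave 1.88 ± 0.63 (edgeR adjusted p = 0.0460).

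Of 18 receptors and co-receptors 3 were called, or 16.7% beside 16.7% of all genes tested. The 3 were Frizzled genes, which make up much of that list. Fzd9 was at 8.15 and 6.18 CPM in forelimb and 23.8 and 29.5 in hindlimb (1.86 ± 0.47, edgeR adjusted p = 0.0127; 0.70 with the offset). Fzd10 went the other way, from 87.1 and 109 to 46.7 and 44.4 (−1.10 ± 0.33, adjusted p = 0.0312; −0.75), as did Fzd7, from 58.3 and 98.9 to 46.2 and 18.9 (−1.25 ± 0.42, adjusted p = 0.0496; −0.06). Fzd10 and Fzd9 kept more of their difference with the offset than Fzd7 did, though neither was then called. With a lowess on the G + C share of genes, Fzd9 was at 1.05, Fzd10 at −0.36 and Fzd7 at −0.46. That fit called none of them (edgeR adjusted p = 0.144, 0.477 and 0.42), and Fzd10 then lay nearer 0 than Fzd7. On last-site tags alone Fzd10 was at −0.61 and Fzd7 at −1.19 (adjusted p = 0.396 and 0.0910). Leaving out replicate 2 of either limb type ended each of these calls, and leaving out forelimb replicate 1 ended those of Fzd10 and Fzd7.

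Among 15 cytoplasmic transducers, the casein kinase gene Csnk1d was called, at 111 and 121 CPM in forelimb and 176 and 292 in hindlimb (1.01 ± 0.33, edgeR adjusted p = 0.0445; −0.17 with the offset and −0.05 with a lowess on gene G + C share). Among 12 nuclear effectors, 2 were called: Tcf7l1, a Tcf factor that mostly represses, at 44.6 and 26.6 against 88.0 and 105 CPM (1.41 ± 0.36, adjusted p = 0.0134; −0.42 with the offset), and Bcl9l, a beta-catenin cofactor, at 22.2 and 25.3 against 47.4 and 58.5 (1.16 ± 0.37, adjusted p = 0.0397; 0.03). The calls made up 6.67% of the transducers and 16.7% of the nuclear effectors, beside 16.7% of all genes tested. The tags of Csnk1d and Tcf7l1 averaged 60.2% and 62.3% G or C. Each call ended without forelimb replicate 2, and those of Csnk1d and Bcl9l also without forelimb replicate 1, without hindlimb replicate 2, or in the fit with the replicate block (adjusted p = 0.0748 and 0.0506). Bcl9l was not called with tags of no gene in the table added either (0.32, adjusted p = 0.542), and was not called on last-site tags (0.75) or its most abundant tag (0.74). On the most abundant tag alone Tcf7l1 was at 0.97 (adjusted p = 0.161), and on last-site tags Csnk1d was at 0.92 (adjusted p = 0.114). Of 5 feedback and target genes none was called; Ccnd1, the most abundant, was at 99.1 and 173 CPM in forelimb and 142 and 106 in hindlimb, which overlapped (−0.13 ± 0.34, adjusted p = 0.830; −0.10 with the offset).

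**Figure D5:**
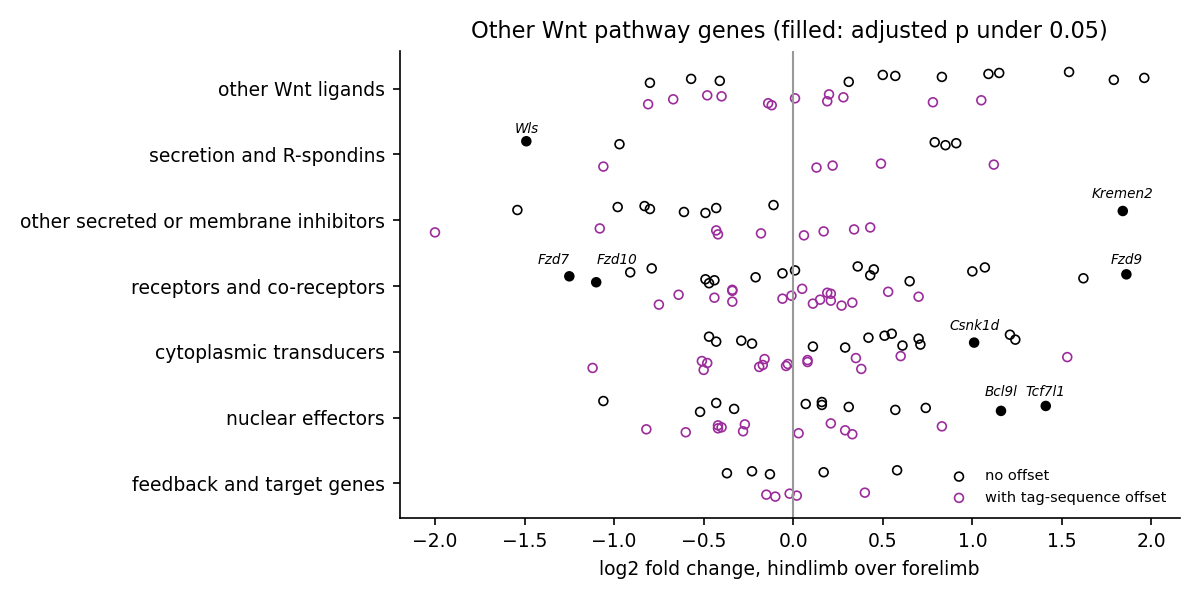
Hindlimb-over-forelimb log2 fold change of the 76 other tested pathway genes by role, without (black) and with (purple) the tag-sequence offset; filled points had an adjusted p under 0.05. Wls (−1.49), Fzd7 and Fzd10 are filled on the forelimb side, Kremen2 (1.84), Fzd9, Csnk1d, Bcl9l and Tcf7l1 on the hindlimb side, and no purple point is filled. With the offset Wls, Kremen2, Csnk1d and Tcf7l1 lie on the other side of 0.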

How the data were processed

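The authors deposited 1 table of raw tag counts for 4 libraries, in which some tags carry a cluster of UniGene or a gene of Ensembl. Bowtie and mm9 are named per the submitters' processing notes, with the aligner version not given in the sources used here. Of 733961 tags, 166502 had a gene or cluster. They held 84.3%, 85.2%, 81.3% and 84.6% of the counts of forelimb replicates 1 and 2 and hindlimb replicates 1 and 2, and the remaining tags stayed out of library sizes and tests. Counts were summed per Ensembl gene, or per cluster where no gene was given. Limb types were compared with edgeR 4.0.16 in R 4.3.3 (filterByExpr, TMM, glmQLFit and glmQLFTest, Benjamini-Hochberg at 0.05), the same per tag, and tag usage with diffSpliceDGE, in each case on all 4 libraries with no covariate. The p-values rest on the spread between 2 samples a limb type, which edgeR moderates across all genes or tags tested. A gene's own replicates thus set only part of its p-value, and 1 sample may hold several embryos.

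The tag-sequence offset was fitted per library on 42831 tags with at least 20 counts, as differences between tags of the same gene, on base at each position, first dinucleotide, and G + C and purine number; it took up 34.8% to 40.7% of the variance between tags of a gene. For tag usage the counts were divided by it. Genome positions are from matching tags to GENCODE M21 transcripts on GRCm38, not mm9, and sites are counted from the 3′ end of the reference transcript. None of the members' counts lay in tags that match another gene there. Named were all members, per member the tags with a mean of at least 1 CPM (at most the 4 most abundant), and per role of the other pathway genes those called (at most 3 by p) or else the most abundant. The members and gene lists were chosen with earlier results of these data known. Scripts were tested on simulated data. Alternatives were DESeq2 1.42.0, other scaling, filters, tag choices, offsets, thinning, a replicate block and leaving out each library. Replicate numbers were not taken as pairs because the labels give no pairing. Replicate differences of the limb types had r = −0.105 across genes. That value cannot settle whether samples shared animals, since the hindlimb replicates also differed from each other in tag composition.

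Summed marker levels of the tissues not given with the members were, in the order above, 708, 715, 792 and 961 CPM for epidermis, 189, 142, 164 and 176 for endothelium and 12300, 9730, 7310 and 8560 for erythroid cells, of whose 5 markers 3 were counted in every library. Each of these lists held markers called in both directions. Those higher in hindlimb and in forelimb were 1 and 2 for epidermis, 2 and 1 for endothelium, and 1 and 1 for erythroid cells.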

Additional observations from a re-analysis of the deposited data

Results flagged for a closer look

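The table held tags with no gene or cluster that match 1 member alone among the M21 transcripts, and these counts entered no level above. For Ctnnb1 there were 5 such tags with 1158 counts, 355 and 133 in the forelimb libraries and 341 and 329 in the hindlimb libraries, which is 23.2% of the counts the table gives to Ctnnb1. For Dkk2 there were 7 with 497 counts, 171 and 90 in forelimb and 132 and 104 in hindlimb, or 25.3% of its counts in the table. For Sfrp1 there were 4 with 86 counts, 31 and 3 in forelimb and 20 and 32 in hindlimb, or 5.59%. Wnt5a had 71 further counts of this kind, Dkk3 31, Sfrp2 16 and Wnt11 8.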

How the results depend on the processing

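Main counts were 2285 genes, 0 Wnt members, 8 other pathway genes, 2358 tags and 905 genes with differing tag usage. Last-site tags alone called 2224 of 9562 genes and the most abundant tag alone 2933 of 12483, beside 2285 of 13718 in the main fit. Genes called were 825 with a GC lowess offset, 21 with the tag-sequence offset and 950 to 3900 on leaving out 1 library (lowest without forelimb replicate 2, highest without hindlimb replicate 1, and 1034 without either of the others). Members called were 2 with DESeq2 (Sfrp2, Dkk2), 2 with last-site tags alone, 4 with the most abundant tag alone, 1 with the tag-sequence offset, and 0 to 1 on leaving out 1 library (Lef1, without hindlimb replicate 1) and 0 to 1 (Sfrp2) with that offset as well. Other pathway genes called were 2 with the GC lowess, 5 with library totals, 14 with the most abundant tag, 0 with the tag-sequence offset and 2 to 15 on leaving out 1 library (4 and 2 without forelimb replicates 1 and 2, 15 and 3 without hindlimb replicates 1 and 2). Tags called were 1120 with library totals, 3707 with no filter, 12 with the offset and 2119 to 10285 on leaving out 1 library (highest without hindlimb replicate 1). Usage calls were 17 with the offset and 12 to 2139 on leaving out 1 library (12 and 24 without forelimb replicates 1 and 2, 2139 and 146 without hindlimb replicates 1 and 2). With the replicate block, 2148 genes, 0 members, 6 pathway genes, 480 tags and 131 usage genes were called, and Wnt5a and Ctnnb1 usage had adjusted p of 0.0614 and 0.137. Crossed replicate numbers as the block gave 3170 genes, 2 members and 12 pathway genes. That block, adding tags with no gene, and the offset with a library left out were chosen after the data were seen.

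Signs of the named genes and tags turned as follows (log2 fold change). Other genes and tags turned too and are not listed. With the tag-sequence offset: Sfrp1 0.12, Axin2 −0.20, Wnt4 −0.67, Wls 0.49, Kremen2 −0.18, Csnk1d −0.17, Tcf7l1 −0.42. With the GC lowess: Dkk3 −0.11, Wnt4 −0.56, Csnk1d −0.05. With last sites: Sfrp1 1.09, Ccnd1 0.66; with the most abundant tag, Sfrp1 1.15; Ccnd1 0.07 on tags of 1 gene and 0.15 with unassigned tags. Named tags that turned with the offset were Wnt11 site 9 (−0.06), Sfrp1 sites 13 (0.11) and 21 (0.14), Sfrp2 site 3 (0.45) and Dkk2 site 1 (0.18). So did Dkk3 sites 7 (−0.58) and 4 (0.06), Ctnnb1 site 3 (−0.23) and Axin2 sites 1 (−0.19) and 2 (−0.24). Dkk3 site 4 also turned with no filter (0.04) and the replicate block (0.31), and Ctnnb1 site 5 with no filter (0.00). Leaving out 1 library gave ranges across 0 for Wnt5a (−0.10 to 0.72), Sfrp1 (−0.31 to 0.04), Frzb (−0.19 to 0.79), Ctnnb1 (−0.17 to 0.02), Ccnd1 (−0.48 to 0.31), and the tags Wnt5a site 30 (−2.93 to 0.12), Sfrp1 site 21 (−1.53 to 1.01), Sfrp2 sites 3 (−1.05 to 0.01) and 5 (−0.39 to 0.59), Frzb site 9 (−1.11 to 0.34), Dkk2 site 9 (−0.50 to 0.10), Dkk3 site 4 (−0.97 to 1.68), Ctnnb1 sites 5 (−0.26 to 0.03) and 1 (−0.40 to 1.17) and Axin2 site 4 (−0.22 to 3.04). Sfrp2 (0.71 to 0.89), Dkk2 (−0.87 to −0.75) and Lef1 (0.85 to 1.53) did not cross it. The causes were not tested beyond what each alternative leaves out. Depth limits Frzb and Lef1 most.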
